A study of Mus musculus with 12 samples.

Results

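Transcripts of 9 mouse genes that mark the surface or the secretions of neutrophils were followed across 12 single-colour Agilent arrays of scraped colon mucosa, 1 mouse per array. The genes were Clec4e, Clec4d, Retnlg, Csf3r, Cxcr2, Fpr1, Fpr2, Trem1 and Trem3, and they were found as the probes whose RefSeq accession carried one of these symbols. They made up 9 of the 23729 genes tested and 12 of the 41174 gene probes on the array: Cxcr2, Fpr2 and Trem1 had 2 probes each, the other genes 1. Of those 23729, 14649 had a gene symbol. The rest were counted under the array's own sequence names, so 1 gene can count more than once among them. All 12 probes passed the filter on dim signals, which asked for a signal well above background on every array of at least 1 group. Where a gene had 2 probes, the brighter one stood for it.

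The mice were wild-type C57BL/6 recipients of C57BL/6 bone marrow, so every colon kept a wild-type epithelium and only cells of marrow origin could lack Muc1, which encodes a mucin held in the cell membrane. The 4 groups of 3 mice were KO_AOMDSS and WT_AOMDSS (Muc1 KO or WT donor marrow, given AOM and DSS) and KO_untreated and WT_untreated (the same 2 kinds of marrow, without treatment). AOM (azoxymethane) is a colon carcinogen and was injected into the peritoneum at 12.5 mg/kg. DSS (dextran sodium sulfate), which injures the colon lining, was in the drinking water from 5 days after: 2 rounds at 2% lasting 4 days, each with 14 days on plain water after it, then a last round at 2.5% lasting 5 days. The colons were taken 1 day later, while the untreated mice had had neither agent, so AOM and DSS cannot be told apart. Below, mice are named by marrow, treatment and the number in their label, and the donor marrow is written KO or WT.

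Neutrophils are short-lived phagocytes that leave the blood for injured or infected tissue and are known to gather in the colon in colitis induced by DSS. They are released from the marrow under granulocyte colony-stimulating factor, which acts through the receptor Csf3r. They move along gradients of CXC chemokines read by Cxcr2 and of formyl peptides read by Fpr1 and Fpr2. At the site, lectin receptors such as Clec4e and Clec4d and the Trem receptors sense microbes and dying cells and signal through the adaptor proteins Fcer1g and Tyrobp. Several of these genes are also known in monocytes and macrophages.

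The array signal was taken on the log2 scale relative to the 75th percentile of its own array, so that 0 is the level of that percentile and 1 unit is a doubling. Each probe binds with its own strength, so levels are compared between mice and not between genes. That percentile lay between 332.0 and 767.8 intensity units on 11 arrays and at 153.2 on the array of treated WT mouse 3, the share of gene probes flagged as well above background ran from 58.0% to 78.2%, and saturation was flagged on 0 spots. Slide 1 held the 3 untreated WT mice and untreated KO mouse 1, slide 2 held treated mouse 3 of each marrow and untreated KO mice 2 and 3, and slide 3, scanned on another day, held the other 4 treated mice. All 10 epithelial marker genes tested were well above background on all 12 arrays. Muc1 itself was at -2.30, -0.99 and -2.41 in treated KO mice and -2.17, -1.47 and -3.53 in treated WT mice, and at -2.12, -2.90 and -3.80 in untreated KO mice and -1.50, -1.72 and -2.25 in untreated WT mice. It passed no test, and because the epithelium of all recipients carries the gene, it does not check the marrow labels.

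The 4 genes that rose in treated mice with both marrows were Clec4e, Clec4d, Retnlg and Csf3r. Clec4d and Clec4e are neighbours on chromosome 6 with 0 protein-coding genes between them in RefSeq, while Retnlg lies on chromosome 16 and Csf3r on chromosome 4. Their promoters are shown because these genes moved together. The windows run from 250 bases before a start position to 50 bases after it (GRCm38.p6): chr6:123289822-123290121 on the minus strand for Clec4e, chr6:123261857-123262156 on the plus strand for Clec4d, chr16:48872358-48872657 on the plus strand for Retnlg and chr4:126024409-126024708 on the plus strand for Csf3r. For Clec4e, Clec4d and Retnlg that position is the RefSeq gene start. The Csf3r window lies inside its RefSeq gene, which starts at 126023441. Capitals mark GAGGAA, the core letters bound by the myeloid factor PU.1, and TTNNGCAA, a form of the site of the C/EBP factors, or their reverse complements TTCCTC and TTGCNNAA.
Clec4e: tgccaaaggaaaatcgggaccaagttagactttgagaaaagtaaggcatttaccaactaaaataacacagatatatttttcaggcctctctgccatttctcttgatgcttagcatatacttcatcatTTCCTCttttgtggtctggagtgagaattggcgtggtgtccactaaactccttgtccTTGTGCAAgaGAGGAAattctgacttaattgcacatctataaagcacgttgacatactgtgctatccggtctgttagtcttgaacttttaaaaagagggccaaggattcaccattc
Clec4d: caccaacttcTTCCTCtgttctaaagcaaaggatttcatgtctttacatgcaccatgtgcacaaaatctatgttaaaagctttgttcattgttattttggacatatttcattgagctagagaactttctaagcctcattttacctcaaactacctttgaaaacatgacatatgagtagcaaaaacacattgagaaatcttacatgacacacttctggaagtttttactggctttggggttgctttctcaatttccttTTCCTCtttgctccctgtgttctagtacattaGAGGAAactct
Retnlg: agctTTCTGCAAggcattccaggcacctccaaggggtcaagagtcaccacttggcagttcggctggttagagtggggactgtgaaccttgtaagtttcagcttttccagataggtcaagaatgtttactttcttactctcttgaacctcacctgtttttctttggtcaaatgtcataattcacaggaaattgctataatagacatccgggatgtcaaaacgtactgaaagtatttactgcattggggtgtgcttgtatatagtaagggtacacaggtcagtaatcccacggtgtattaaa
Csf3r: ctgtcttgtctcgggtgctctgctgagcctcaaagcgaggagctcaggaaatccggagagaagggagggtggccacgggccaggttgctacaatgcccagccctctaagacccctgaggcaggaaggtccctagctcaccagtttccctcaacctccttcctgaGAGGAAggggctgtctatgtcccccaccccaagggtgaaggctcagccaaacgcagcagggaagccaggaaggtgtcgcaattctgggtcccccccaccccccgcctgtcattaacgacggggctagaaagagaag

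GAGGAA was in the windows of Clec4e (2 copies, 1 of them 2 bases from the C/EBP letters), Clec4d (3 copies) and Csf3r (1 copy), and not in that of Retnlg. TTNNGCAA was in the windows of Clec4e and Retnlg. Of the 8 members with a window in the table, 6 held GAGGAA and 2 held TTNNGCAA, against 28.3% and 10.8% of all 32851 windows of 300 bases. Both motifs were chosen with the sequences in view, and a match says only that the letters are there.

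With KO marrow, 5 of the 9 genes were higher in treated than in untreated mice at an adjusted p below 0.05 (limma, adjusted by Benjamini-Hochberg over all 23729 genes), and 0 were lower: Clec4e, Clec4d, Retnlg, Csf3r and Fpr2. In this comparison 3.16% of all genes were called, 1.85% as higher and 1.31% as lower. With WT marrow 4 of 9 were called, all higher: Clec4e, Clec4d, Retnlg and Csf3r, against 13.8% of all genes, 3.62% as higher and 10.2% as lower. Over all genes, leaving out 1 mouse gave 251 (without untreated KO mouse 3) to 1268 (without treated WT mouse 3) calls with KO marrow, where all 12 mice gave 749, and 487 (without untreated WT mouse 1) to 7600 (without treated WT mouse 3) with WT marrow, where they gave 3278. At an unadjusted p below 0.05 the counts were 7 of 9 with KO marrow and 5 of 9 with WT marrow, against 14.6% and 33% of all genes. The median log2 difference of the 9 genes was 3.89 with KO marrow and 2.30 with WT marrow, beside medians of -0.11 and -0.24 over all genes tested. For 7 of the 9 genes with each marrow, all 3 treated mice lay above all 3 untreated mice, which held for 11.2% of all genes in each comparison. In mucosa, more cells of a type and more RNA per cell cannot be told apart.

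**Figure D1:**
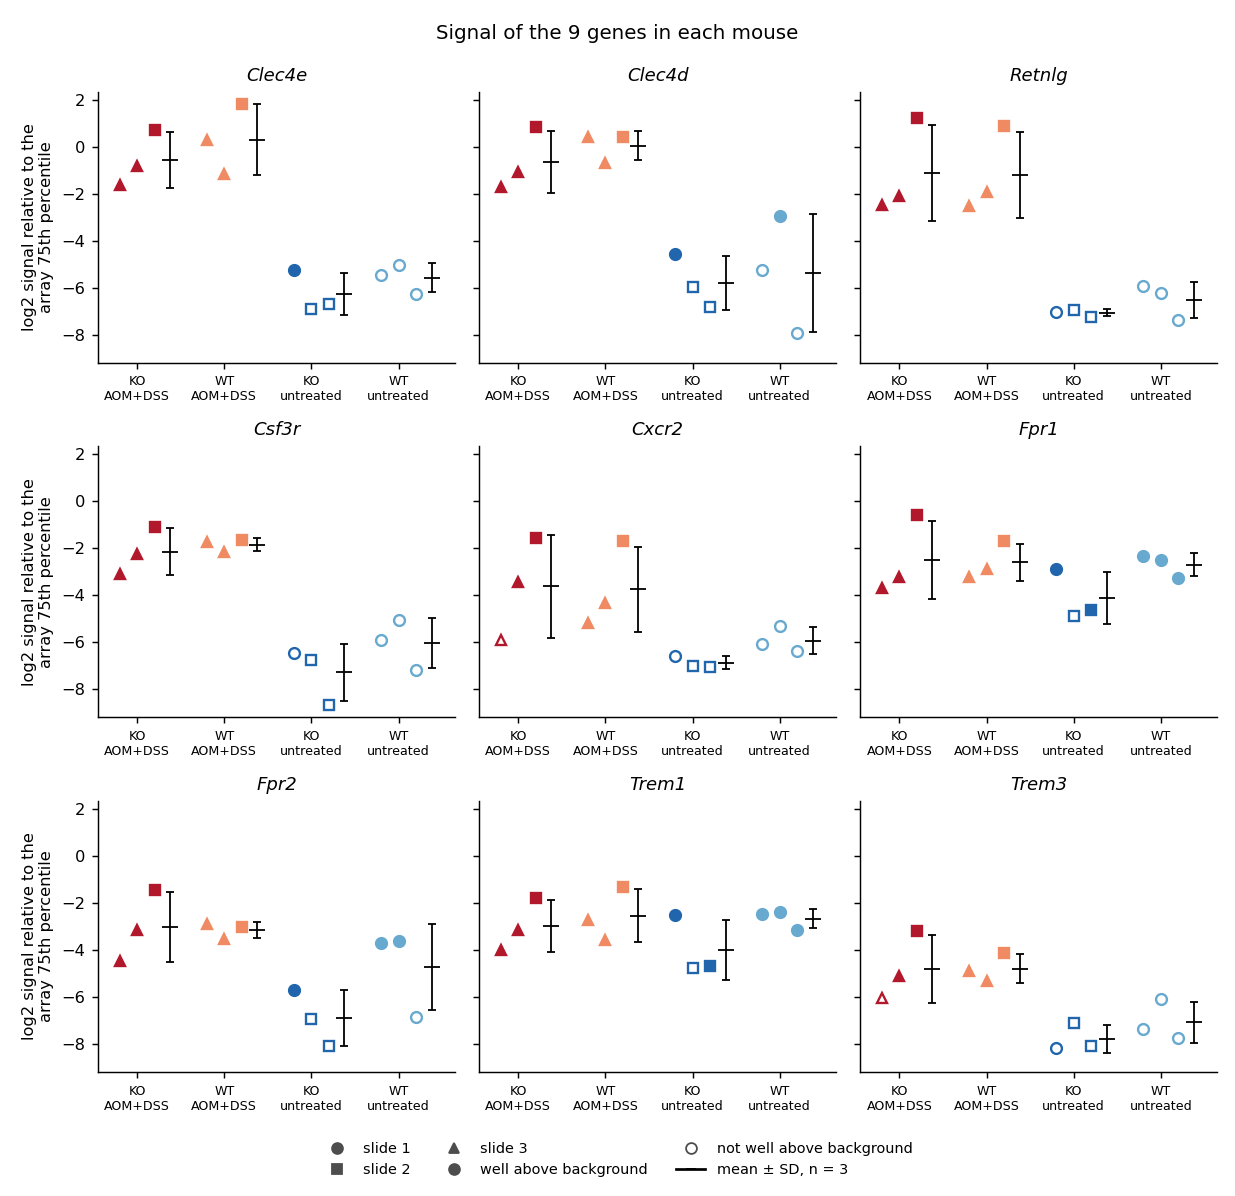
Log2 signal relative to the 75th percentile of the array (vertical axis) of each of the 9 genes in each mouse, by group, with the marker shape for the slide, open markers for spots not well above background, and a bar for the mean ± SD of 3 mice. The treated mice stand apart from the untreated ones in Clec4e, Clec4d, Retnlg, Csf3r and Trem3, and the ranges meet in Fpr1 and Trem1.

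Clec4e encodes Mincle, a lectin receptor for microbial glycolipids and for a protein set free by dying cells. It was at -1.62, -0.83 and 0.72 in treated KO mice 1 to 3, against -5.23, -6.90 and -6.70 in untreated KO mice 1 to 3. It was at 0.28, -1.17 and 1.83 in treated WT mice, against -5.45, -5.04 and -6.26 in untreated WT mice. The lowest treated mouse of either marrow was above the highest untreated one by more than 3 units, and the probe was well above background on 0 of 3 untreated WT arrays and 1 of 3 untreated KO arrays. The log2 difference was 5.70 ± 0.79 (SE, n = 3 per group, 51.9-fold, adjusted p = 0.00197 in limma) with KO marrow. It was 5.90 ± 0.79 (at least 58.6-fold, adjusted p = 0.00213 in limma) with WT marrow. "At least" marks a fold against mice in which the probe was not well above background on any array. On each such array the larger of 2 signals was used: the probe's own, or the lowest one well above background there. It is a limit for this background correction only.

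Clec4d, which encodes a lectin receptor that forms pairs with Mincle, had -1.70, -1.08 and 0.83 in treated KO mice, against -4.58, -5.98 and -6.85 in untreated KO mice. In treated WT mice it had 0.42, -0.67 and 0.40, against -5.26, -2.94 and -7.93 in untreated WT mice. Untreated WT mice differed widely (SD 2.50), yet their highest value was still below every treated mouse. The difference was 5.16 ± 1.05 with KO marrow (SE, n = 3 per group, 35.7-fold, adjusted p = 0.018 in limma). With WT marrow it was 5.43 ± 1.05 (43.0-fold, adjusted p = 0.0113 in limma). These folds, like that of Clec4e with KO marrow, rest in part on untreated spots that were not well above background: Clec4d was well above it on 2 of 6 untreated arrays. The call with KO marrow was lost without treated KO mouse 2 (adjusted p = 0.0541) or 3 (0.0757) and without untreated KO mouse 2 (0.0754) or 3 (0.101), and that with WT marrow without treated WT mouse 1 (0.0511), all in limma.

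Retnlg encodes resistin-like gamma, a small cysteine-rich protein secreted by mouse marrow and blood cells, neutrophils above all. Treated KO mice had -2.48, -2.11 and 1.23, against -7.02, -6.97 and -7.24 in untreated KO mice. Treated WT mice had -2.54, -1.92 and 0.89, against -5.93, -6.22 and -7.39 in untreated WT mice. Treated mouse 3 of each marrow was about 3 units above the other 2 of its group, and the probe was not well above background on any of the 6 untreated arrays. The log2 difference was 5.96 ± 1.00 with KO marrow (SE, n = 3 per group, at least 28.3-fold, adjusted p = 0.00596 in limma) and 5.33 ± 1.00 with WT marrow (at least 22.3-fold, adjusted p = 0.00987 in limma).

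Csf3r, the receptor for granulocyte colony-stimulating factor, was nearly level among treated WT mice (SD 0.27). It was at -3.10, -2.24 and -1.10 in treated KO mice, against -6.45, -6.74 and -8.68 in untreated KO mice. It was at -1.74, -2.15 and -1.64 in treated WT mice, against -5.91, -5.04 and -7.18 in untreated WT mice. All 6 treated arrays and 0 of the 6 untreated arrays had the probe well above background. The log2 difference was 5.14 ± 0.75 with KO marrow (SE, n = 3 per group, at least 13.9-fold, adjusted p = 0.00249 in limma) and 4.20 ± 0.75 with WT marrow (at least 13.6-fold, adjusted p = 0.00787 in limma).

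The size of these differences depended on the background correction and its settings. The normexp alternative started from the median spot signal and added an offset of 50 intensity units. The parts of the correction, the signal and the offset were not tested. With normexp correction, Clec4e differed by 2.77 with KO marrow and 2.90 with WT marrow, and Clec4d by 2.53 and 2.58, all 4 still called. Retnlg gave 2.66 with KO marrow, still called, and 2.07 with WT marrow, where the call was lost (adjusted p = 0.0746 in limma). Csf3r lost its call with KO marrow (1.80, adjusted p = 0.101 in limma) and kept it with WT marrow (2.04, adjusted p = 0.0391 in limma).

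The 3 chemoattractant receptors gave smaller differences. Cxcr2, the receptor of the neutrophil-attracting CXC chemokines, had -5.91, -3.43 and -1.54 in treated KO mice, against -6.57, -6.99 and -7.04 in untreated KO mice. In treated WT mice it had -5.19, -4.33 and -1.70, against -6.10, -5.30 and -6.39 in untreated WT mice. All treated mice were above the untreated mice of their own marrow, but treated mice of one group lay more than 3 units apart, and the probe was well above background on 2 of 3 treated KO arrays, all 3 treated WT arrays and 0 of 6 untreated ones. The log2 difference was 3.24 ± 1.04 (SE, n = 3 per group, adjusted p = 0.137 in limma) with KO marrow and 2.19 ± 1.04 (adjusted p = 0.163 in limma) with WT marrow, neither past the threshold. Without treated KO mouse 1, the lowest of its group, the KO difference was 4.38 (adjusted p = 0.048 in limma).

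Fpr1, which binds formyl peptides from bacteria and mitochondria, was at -3.69, -3.22 and -0.60 in treated KO mice, against -2.86, -4.89 and -4.62 in untreated KO mice. It was at -3.21, -2.89 and -1.70 in treated WT mice, against -2.34, -2.48 and -3.25 in untreated WT mice. The ranges overlapped with both marrows, and the differences of 1.63 ± 0.78 (SE, n = 3 per group, adjusted p = 0.372 in limma) with KO marrow and 0.09 ± 0.78 (adjusted p = 0.949 in limma) with WT marrow did not pass. Fpr2, its neighbour on chromosome 17, also binds lipoxin, annexin A1 and serum amyloid A. It was at -4.46, -3.14 and -1.47 in treated KO mice, against -5.71, -6.94 and -8.08 in untreated KO mice. It was at -2.90, -3.53 and -3.02 in treated WT mice, against -3.72, -3.65 and -6.85 in untreated WT mice.

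Fpr2 rose with KO marrow by 3.89 ± 0.96 (SE, n = 3 per group, 14.8-fold, adjusted p = 0.0454 in limma), with the probe well above background in 1 of 3 untreated KO mice. With normexp correction the difference was 1.55 and the call was lost (adjusted p = 0.292 in limma). With WT marrow the difference was 1.59 ± 0.96 (adjusted p = 0.265 in limma), although the ranges did not overlap. The KO call was close to the threshold and was lost without any one of 8 mice: treated KO 2 or 3, treated WT 1 or 2, untreated KO 2 or 3, or untreated WT 1 or 2, with adjusted p between 0.0536 and 0.212 in limma. The difference between the 2 treatment effects was 2.30 ± 1.35 (adjusted p = 0.897 in limma).

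Trem1 encodes a receptor that amplifies inflammatory signals in neutrophils and monocytes, and Trem3 a related receptor that is active in mice. Both signal through Tyrobp and lie next to each other on chromosome 17. Trem1 was at -4.00, -3.16 and -1.80 in treated KO mice, against -2.51, -4.77 and -4.69 in untreated KO mice. It was at -2.72, -3.59 and -1.34 in treated WT mice, against -2.46, -2.40 and -3.15 in untreated WT mice. Treated and untreated mice overlapped with both marrows, and the differences were 1.00 ± 0.75 (SE, n = 3 per group, adjusted p = 0.617 in limma) and 0.12 ± 0.75 (adjusted p = 0.929 in limma) with KO and WT marrow.

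Trem3 was at -6.07, -5.13 and -3.21 in treated KO mice, against -8.18, -7.11 and -8.10 in untreated KO mice. It was at -4.92, -5.35 and -4.12 in treated WT mice, against -7.40, -6.11 and -7.78 in untreated WT mice. Every treated mouse was above every untreated one, but the probe was dim: it was well above background on 2 of 3 treated KO arrays, 3 of 3 treated WT arrays and 0 of 6 untreated ones. The differences of 2.99 ± 0.82 (SE, n = 3 per group, adjusted p = 0.072 in limma) with KO marrow and 2.30 ± 0.82 (adjusted p = 0.0733 in limma) with WT marrow did not pass. Without treated WT mouse 3 the KO difference passed (adjusted p = 0.0489 in limma).

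Both probes of Cxcr2, Fpr2 and Trem1 were then tested apart, with p-values adjusted over 30192 probes, an analysis added after the values had been seen. The dimmer Cxcr2 probe gave 2.44 with KO marrow and 2.66 with WT marrow, close to the brighter one. The probes of Fpr2 disagreed. The brighter one was called with KO marrow in this fit too (adjusted p = 0.0488 in limma), while the dimmer one was at -5.53, -5.17 and -3.45 in treated KO mice, against -4.03, -5.37 and -5.36 in untreated KO mice. It gave 0.21 ± 0.65 with KO marrow and 0.25 ± 0.65 with WT marrow (SE, n = 3 per group, adjusted p = 0.923 and 0.823 in limma). The probes of Trem1 disagreed the other way. The dimmer Trem1 probe was at -3.91, -3.26 and -1.88 in treated KO mice, against -4.92, -6.72 and -8.09 in untreated KO mice, with no overlap, a difference of 3.56 ± 0.80 (adjusted p = 0.0321 in limma). With WT marrow that probe had -2.83, -3.59 and -1.88 in treated mice, against -3.86, -4.50 and -4.97 in untreated mice, a difference of 1.67 ± 0.80 (adjusted p = 0.17 in limma). Per probe, 6 of the 12 probes were called with KO marrow, against 2.92% of all 30192, and 4 with WT marrow, against 12.3%, so the Fpr2 and Trem1 results depend on which probe is read.

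**Figure D2:**
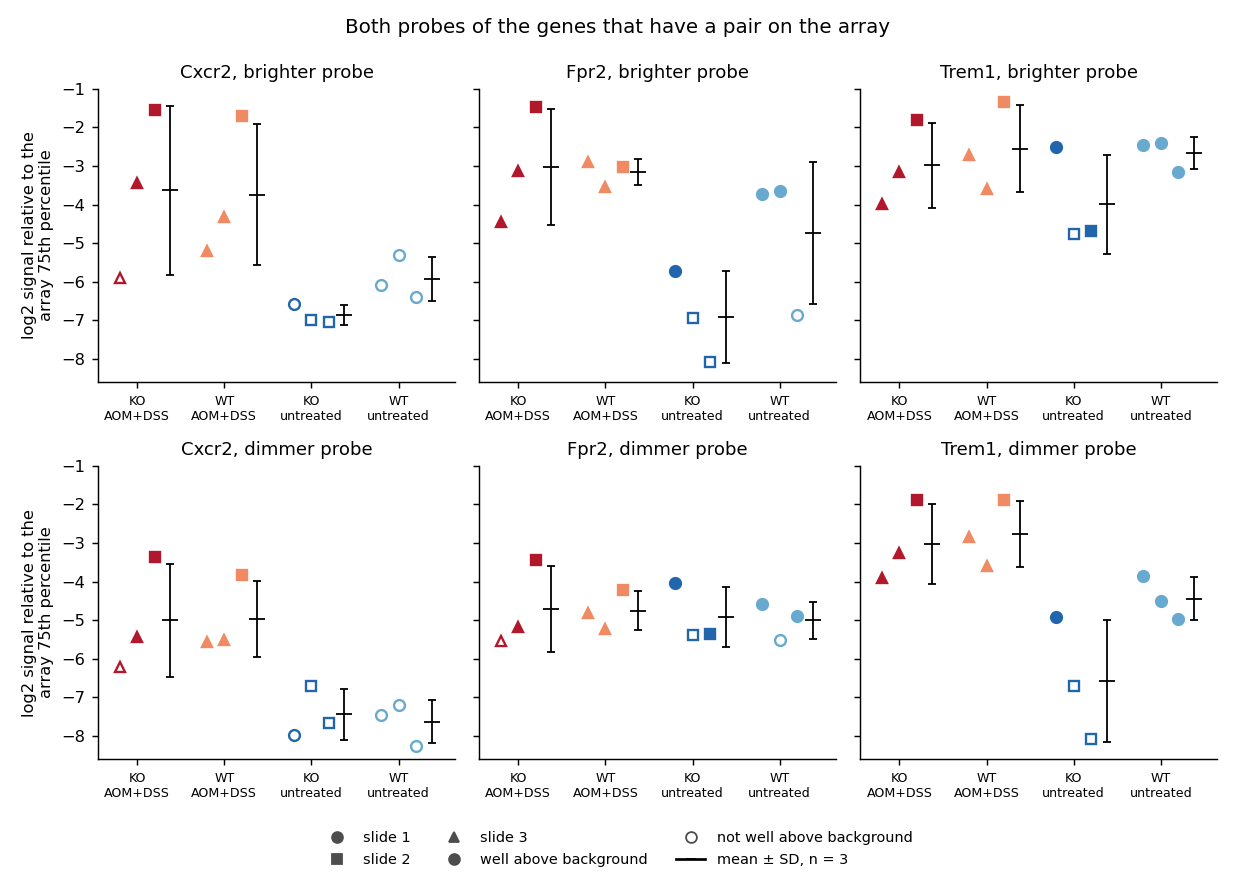
Log2 signal relative to the 75th percentile of the array (vertical axis) for the brighter (top) and dimmer (bottom) probe of Cxcr2, Fpr2 and Trem1 in each mouse, by group, with mean ± SD of 3 mice. The untreated KO mice lie between -5.71 and -8.08 on the brighter Fpr2 probe but between -4.03 and -5.37 on the dimmer one, and between -2.51 and -4.77 on the brighter Trem1 probe but between -4.92 and -8.09 on the dimmer one.

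The slides did not hold the groups evenly, and the treated mice numbered 3 stood out. Treated KO mouse 3 was the highest of its group in 9 of 9 genes, and treated WT mouse 3 in 7 of 9 (all but Clec4d and Fpr2). Both lay on slide 2, and the other treated mice on slide 3. Untreated KO mouse 1, on slide 1 with the untreated WT mice, was the highest of its group in 7 of 9 genes. With slide as a block, all 9 differences with KO marrow grew, to between 2.94 (Trem1) and 8.19 (Retnlg), and all 9 were called, in a fit that called 7.27% of all genes. Within slide 2, treated KO mouse 3 set against untreated KO mice 2 and 3 gave 2.93 (Trem1) to 8.33 (Retnlg), again with all 9 called, against 26.2% of all genes. There 1 mouse is set against 2, and the spread comes from those 2 untreated KO mice alone, with limma's prior over all genes.

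Treated and untreated WT mice shared no slide, so the treatment effect with WT marrow has no within-slide value. With slide as a block, the shift between slide 1 and the others came only from untreated KO mice. There mouse 1 was set against mice 2 and 3. The differences with WT marrow in that fit rest on this shift. They ran from 2.85 (Trem3) to 8.87 (Clec4e). Of the 9 genes 2 were called, against 0.535% of all genes: Clec4e (8.87 ± 0.89, adjusted p = 0.00311 in limma) and Retnlg (7.62 ± 0.86, adjusted p = 0.00504 in limma). Clec4d (8.18 ± 1.86, adjusted p = 0.0811) and Csf3r (6.09 ± 1.25, adjusted p = 0.062) were no longer past the threshold in that limma fit. Without mice 3 of both treated groups, Clec4e, Clec4d, Retnlg and Csf3r were called with both marrows and Fpr2 was not (adjusted p = 0.0943 in limma), in a fit that called 5.77% of all genes with KO marrow and 34.7% with WT marrow. Treated WT mouse 3 and the untreated WT mice were scanned on the same day, and within that day, with 1 mouse against 3, 4 genes were called (Clec4e, Retnlg, Csf3r and Cxcr2), against 11.3% of all genes, while Clec4d was lost (5.78, adjusted p = 0.0618 in limma). With KO marrow the same day set treated mouse 3 against the 3 untreated mice and gave 3 calls (Clec4e, Retnlg and Cxcr2), against 1.13% of all genes. Clec4d (6.63, adjusted p = 0.0937), Csf3r (6.19, adjusted p = 0.0533) and Fpr2 (5.44, adjusted p = 0.102) missed the threshold in that limma fit. The part of the slide in the size of these differences was not tested.

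**Figure D3:**
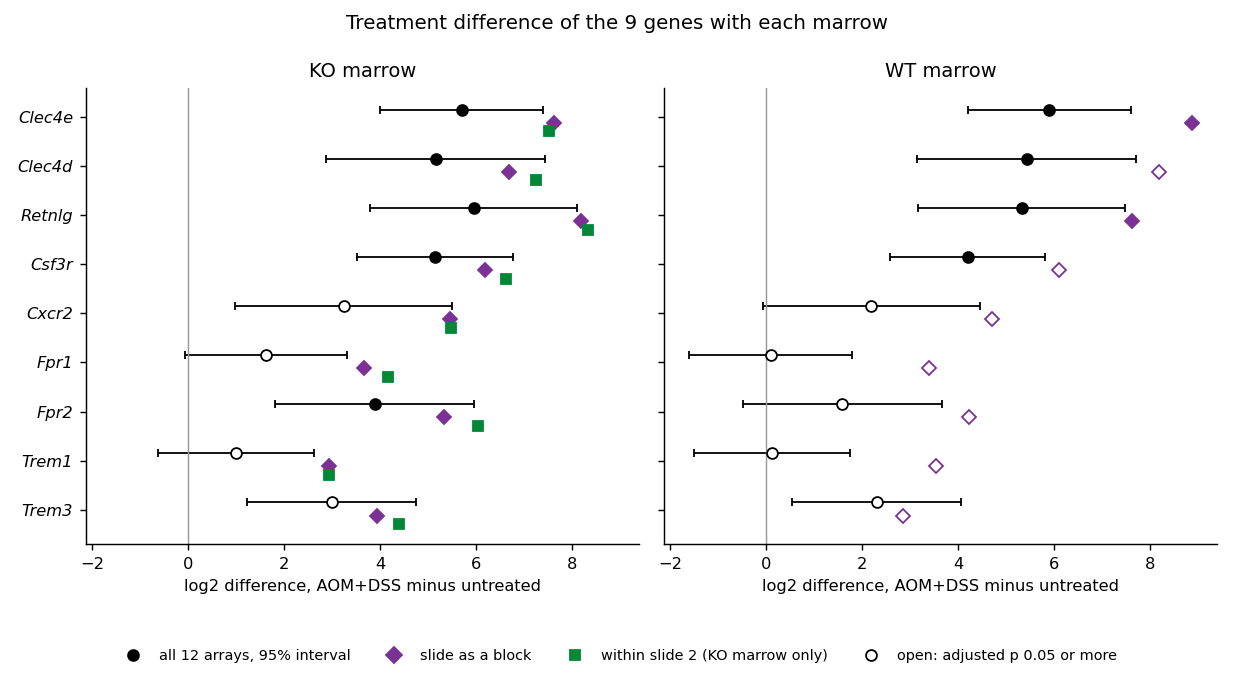
Log2 difference between treated and untreated mice (horizontal axis) of the 9 genes with KO marrow (left) and WT marrow (right), as circles with 95% intervals over all 12 arrays, diamonds with slide as a block and squares within slide 2. The diamonds with WT marrow rest on the slide shift of untreated KO mice, since treated and untreated WT mice shared no slide. Filled markers are past the threshold: 5 circles with KO marrow, 4 with WT marrow, 2 diamonds with WT marrow (Clec4e and Retnlg), and all 9 diamonds and squares with KO marrow, where a square sets 1 treated mouse against 2 untreated ones.

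Among the ligands of these receptors, 4 of the 5 CXC chemokines read by Cxcr2 rose with both marrows. Of 8 ligand genes tested, 4 rose with KO marrow (Cxcl1, Cxcl2, Cxcl3 and Cxcl5, median of the 8 genes 3.51) and 6 with WT marrow (the same 4 with Anxa1 and Pglyrp1, median 3.11). Cxcl3 differed by 6.53 ± 0.89 with KO marrow (at least 20.3-fold) and 6.15 ± 0.89 with WT marrow (at least 18.6-fold). Cxcl2 differed by 5.98 ± 0.70 (at least 19.5-fold) and 5.37 ± 0.70 (at least 27.3-fold), Cxcl5 by 5.57 ± 0.66 and 7.09 ± 0.66, and Cxcl1 by 5.04 ± 0.66 and 4.80 ± 0.66 (SE, n = 3 per group, adjusted p between 0.000231 and 0.00368 in limma for these 8 differences). Anxa1, a ligand of Fpr2, rose by 1.23 ± 0.21 with WT marrow (adjusted p = 0.00677 in limma), and Pglyrp1, a proposed ligand of Trem1 known from human cells, by 1.41 ± 0.31 (adjusted p = 0.0174 in limma).

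With KO marrow Anxa1 gave 0.64 and Pglyrp1 0.82, neither past the threshold (adjusted p = 0.148 and 0.218 in limma), and the interaction was not past it for either gene (adjusted p = 0.897 for both in limma). Ppbp, the fifth CXC chemokine read by Cxcr2, gave 1.98 with KO marrow and 0.68 with WT marrow, and Saa3 gave 0.32 and 0.54, none past the threshold. Csf3, the ligand of Csf3r, was on the array but did not pass the filter on dim signals.

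Of 14 adaptor and signalling genes tested, 5 rose with KO marrow and 4 with WT marrow, with medians of 0.77 and 0.55. The largest rise was that of Socs3, which restrains signalling from Csf3r: 4.41 ± 0.33 with KO marrow and 4.45 ± 0.33 with WT marrow (SE, n = 3 per group, adjusted p = 6.92e-05 and 3.78e-05 in limma). Tyrobp, the partner of the Trem receptors, rose by 2.77 ± 0.41 and 2.33 ± 0.41, and Prex1, which acts downstream of chemoattractant receptors, by 2.20 ± 0.40 and 1.42 ± 0.40. Fcer1g, the partner of Clec4e and Clec4d, rose by 2.32 ± 0.33 with KO marrow (adjusted p = 0.00223 in limma), and Syk, the kinase it recruits, by 1.24 ± 0.30 with WT marrow (adjusted p = 0.024 in limma). Neither was past the threshold with the other marrow, and the interaction was called for 0 of the 14 genes. The fifth gene called with KO marrow was Lyn (1.70).

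**Figure D4:**
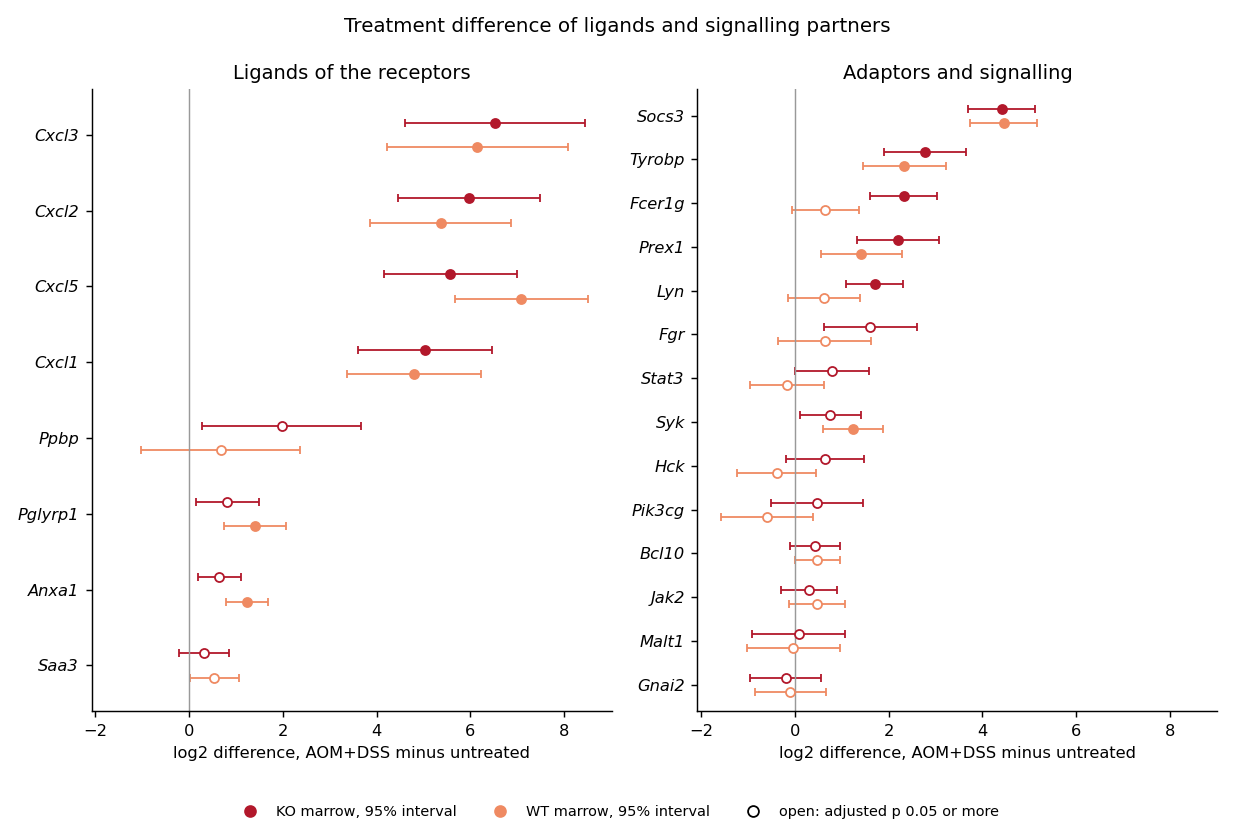
Log2 difference between treated and untreated mice (horizontal axis, with 95% intervals) of the ligands (left) and of the adaptor and signalling genes (right), with KO marrow in dark red and WT marrow in orange, filled where past the threshold. Of the 5 CXC chemokines, Cxcl1, Cxcl2, Cxcl3 and Cxcl5 lie between 4.80 and 7.09 with both marrows, and Socs3 at 4.41 and 4.45.

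Of the family relatives of the 9 genes, 4 of 12 tested rose with KO marrow (Clec4a3, Trem2, Treml4 and Clec4n, with 3.77, 3.43, 2.78 and 1.85) and 3 of 12 with WT marrow (Treml4, Clec4a3 and Trem2, with 2.61, 2.47 and 2.11). Retn, Retnla and Retnlb, the relatives of Retnlg, passed with neither marrow and are named after their values were seen. Their differences ran from -1.55 to 0.33 with KO marrow and from -2.90 to -2.01 with WT marrow.

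Of 12 neutrophil granule genes tested, 6 rose with KO marrow, S100a8 and S100a9 (8.31 and 7.94), Mmp8 (4.63) and Ltf (4.27) the most. With WT marrow 5 rose, S100a8 (9.57), S100a9 (8.37), Ltf (4.50) and Lcn2 (4.16) the most, and 1 fell, Ctsg (-2.34). The medians of the 12 genes were 2.98 with KO marrow and 1.56 with WT marrow. Their summed linear signal, in multiples of the 75th percentile of the array, ran from 12.8 to 57.6 in treated KO mice and 48.8 to 121.7 in treated WT mice, against 0.63 to 1.64 in untreated KO mice and 1.07 to 2.29 in untreated WT mice. Elane, Camp and Ngp did not pass the filter on dim signals. The granule gene Mmp9 was also among the 15 neutrophil markers tested. Of these 15, 5 rose with KO marrow, Lrg1 (6.38), Cxcl2 (5.98, also among the ligands), Bst1 (4.11) and Il1r2 (3.96) the most. With WT marrow 4 rose: Lrg1 (5.99, fitted without treated WT mouse 1, where its spot was left out), Cxcl2 (5.37), Il1r2 (4.43) and Slfn4 (2.31). The medians of the 15 markers were 1.23 with KO marrow and 0.97 with WT marrow. The summed signal of these 15 markers ran from 19.0 to 101.9 in treated KO mice and 16.0 to 89.4 in treated WT mice (mouse 1 without Lrg1), against 7.10 to 10.4 in untreated KO mice and 6.52 to 8.23 in untreated WT mice. Treated mouse 2 of each marrow had the highest sum. Treated mouse 3 had the lowest sum but the highest mean log2 signal of its group (-0.99 with KO and -1.23 with WT marrow). The sum thus does not follow the list as a whole. The neutrophil marker Ly6g could not be matched by name.

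Of 12 monocyte and macrophage markers tested, 6 rose with each marrow, among them Mpeg1 (3.22 and 2.57) and Itgam (3.05 and 2.36) with KO and WT marrow. The medians of these markers were 2.24 with KO marrow and 1.75 with WT marrow, above the 1.23 and 0.97 of the neutrophil markers. Their summed linear signal was 25.9 to 38.0 in treated KO mice and 18.2 to 30.1 in treated WT mice, against 11.7 to 17.1 in untreated KO mice and 9.30 to 15.5 in untreated WT mice. With slide as a block the counts of ligands, adaptors, relatives, granule genes, neutrophil markers and monocyte markers called were 4, 7, 6, 8, 7 and 5 with KO marrow, and 3, 1, 1, 1, 2 and 1 with WT marrow. Monocytes and macrophages also use several of the 9 genes, and their part in the result was not tested. Of 10 epithelial markers, 1 fell with both marrows, the chloride exchanger Slc26a3 (-3.04 with KO marrow and -2.38 with WT marrow). Of markers of other cells, 1 of 5 for eosinophils rose with each marrow (Il5ra, 4.53 and 3.58 with KO and WT marrow), where the medians of the list were -0.08 and -1.31. Of 7 mast cell markers 2 rose with each marrow (Mcpt1, 3.34 and 3.00, and Mcpt2, 3.42 and 2.91), and Tpsb2 (-3.48) and Cma1 (-1.87) fell with WT marrow, with medians of -0.21 and -0.57. Of 6 B and plasma cell markers 1 rose with each (Jchain, 2.63 and 2.33), with medians of 0.59 and -0.26. Of 4 dendritic cell markers 1 rose with each (Itgax, 2.33 and 2.81), and Flt3 (-2.71) and Zbtb46 (-2.33) fell with WT marrow, with medians of -0.13 and -1.69. Of 6 T and NK cell markers and 4 smooth muscle markers, 0 passed with either marrow.

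The 9 genes were then compared between the marrows. In treated mice, 0 of 9 differed between KO and WT marrow in limma, as did 0% of all genes, and at an unadjusted p below 0.05 the share was 0 of 9 against 0.973% of all genes. The KO minus WT differences ran from -0.89 (Clec4e) to 0.13 (Fpr2), with SEs of 0.75 to 1.05 and 95% intervals reaching from -2.97 (Clec4d) to 2.37 (Cxcr2), so several-fold differences in either direction lie within them. For 0 of the 9 genes were all 3 treated KO mice above all 3 treated WT mice, against 2.03% of all genes, and for 0 below them, against 1.69%. For Clec4e, treated KO mouse 3 minus treated WT mouse 3, the 1 mouse of each marrow on slide 2, gave -1.11, a value with no replicate, and the 2 mice of each marrow on slide 3 gave -0.78 (adjusted p = 0.984 in limma). Of the 9 differences, 7 were above 0 between the 2 mice on slide 2, and 1 of 9 within slide 3.

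In untreated mice 0 of 9 genes were called, again beside 0% of all genes. All 9 KO minus WT differences were below 0, from -0.43 (Clec4d) to -2.17 (Fpr2), beside a median of -0.18 over all genes, with each gene with 2 probes read from the brighter one. On the dimmer probes the difference was 0.19 for Cxcr2, 0.08 for Fpr2 and -2.13 for Trem1. All 3 KO values lay above all 3 WT values for 0 of 9 genes, against 6.18% of all genes, and below them for 1 of 9 (Cxcr2), against 6.57%. Fpr2 was at -5.71, -6.94 and -8.08 in untreated KO mice, against -3.72, -3.65 and -6.85 in untreated WT mice, a difference of -2.17 ± 0.96 (SE, adjusted p = 0.404 in limma). It was the 1 gene of the 9 below an unadjusted p of 0.05, a threshold that 12.3% of all genes passed. Within slide 1, where untreated KO mouse 1 lay with the 3 untreated WT mice, 3 of the 9 differences were above 0 and Fpr2 differed by -0.97 ± 1.19. With weights per array, 5 genes were called as lower in untreated KO mice (Clec4e, Csf3r, Fpr1, Fpr2 and Trem1), a fit in which 45.2% of all genes were called. The marrow and the slide thus overlap in untreated mice, and their parts were not tested.

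**Figure D5:**
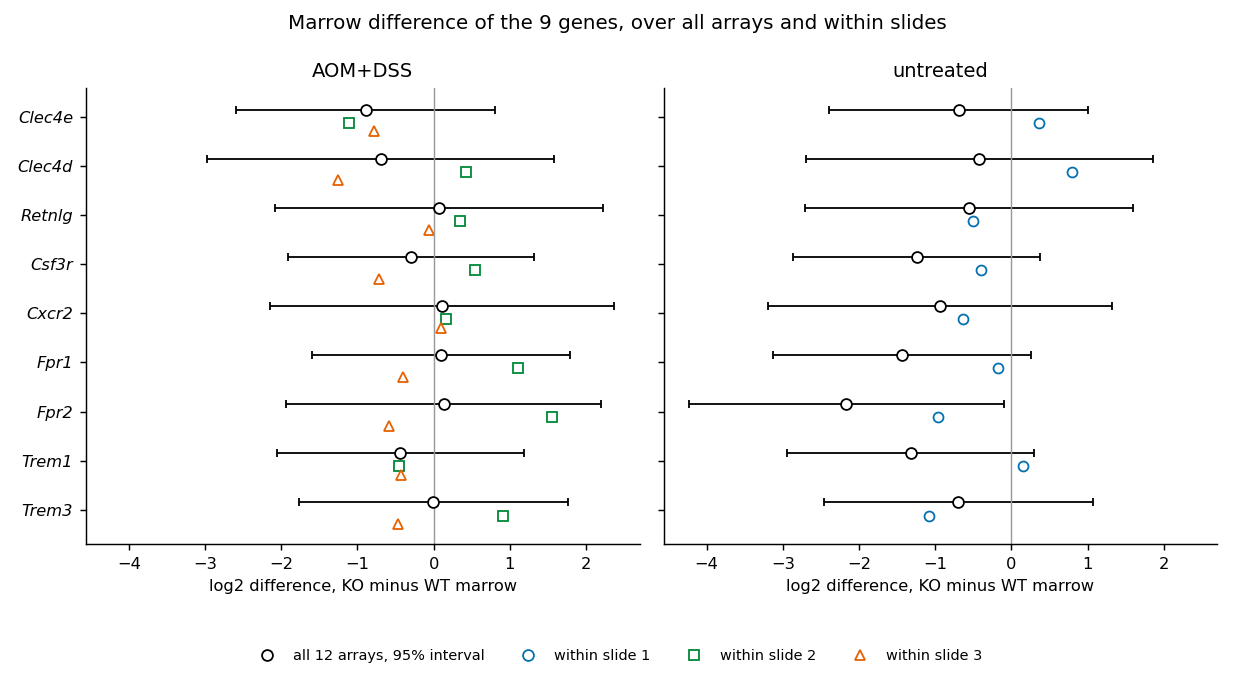
Log2 difference between KO and WT marrow (horizontal axis) of the 9 genes in treated (left) and untreated (right) mice, as circles with 95% intervals over all 12 arrays and smaller markers within slides. No marker is filled, since no difference passed the threshold, and in treated mice the markers of slides 2 and 3 lie on both sides of 0 for 6 of the 9 genes.

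The treatment effect with KO marrow minus that with WT marrow ran from -0.27 (Clec4d) to 2.30 (Fpr2) and was called for 0 of 9 genes and for 0% of all genes, with 0 of 9 against 3.49% at an unadjusted p below 0.05. It was above 0 for 7 of 9 genes, all but Clec4e and Clec4d, with a median of 0.89 beside 0.18 over all genes. Here each gene with 2 probes was read from the brighter one. On the dimmer probes it was -0.22 for Cxcr2, -0.04 for Fpr2 and 1.89 for Trem1. The 2 treatment effects share no mice.

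Ordered by group mean, both treated groups stood first for 8 of the 9 genes, and untreated KO mice last for all 9, on the brighter probe where a gene had 2. The exception was Trem1, where treated KO mice came after untreated WT mice. The neighbours in this order overlapped between the 2 treated groups for all 9 genes and between the 2 untreated groups for all but Cxcr2, where untreated KO mice (-6.87 ± 0.26, SD, n = 3) lay below untreated WT mice (-5.93 ± 0.57), both from arrays on which the probe was not well above background. All 6 treated values were above all 6 untreated values for 5 of the 9 genes (Clec4e, Clec4d, Retnlg, Csf3r and Trem3), against 4.28% of all genes. Of the 27 values per group, 25 were well above background in treated KO mice and 27 in treated WT mice, against 7 in untreated KO mice and 9 in untreated WT mice. Apart from Fpr1 and Trem1, the genes passed the filter on dim signals only through a treated group. The filter thus fixed part of these counts in advance.

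Among 13366 other genes with a symbol and no missing value, those closest to the mean centred profile of the 9 genes over the 12 arrays, by root mean square distance, were F10 (0.425), Wfdc21 (0.557), Tnfrsf11b (0.588), F13a1 (0.595) and Tgfbi (0.596). Of the 9 genes themselves, Trem3 was the closest (0.638) and Trem1 the farthest. F10 encodes coagulation factor X, F13a1 a subunit of coagulation factor XIII, Tnfrsf11b osteoprotegerin and Tgfbi a matrix protein. F10 rose by 3.40 ± 0.64 with KO marrow and 2.87 ± 0.64 with WT marrow (SE, n = 3 per group). It was picked for its closeness to a profile that is high in treated mice on these same arrays. Its rise follows from that choice and is no separate test.

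The authors' deposited table of group means held 7 of the 9 genes, without Cxcr2 and Fpr1, and its Trem1 probe was the dimmer one. In the authors' deposited table, the treated minus untreated values with KO and WT marrow were 5.71 and 5.92 for Clec4e, 5.97 and 5.35 for Retnlg, and 3.57 and 1.69 for Trem1. Over all its probes, 96.8% of the values in the authors' deposited table lay within 0.1 of the centred group means computed from the arrays.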

How the data were processed

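Single-colour arrays (Agilent mouse design 014868, scanned images read by Feature Extraction version 10.7.3.1) gave 1 file per mouse, and the deposited processed signal is an intensity that the scanner software had already corrected for background, per the file headers. From it, 43379 gene spots were taken, spots marked as non-uniform or population outliers were left out, and spots of 1 probe were averaged. Non-uniform spots numbered 491 to 767 on the arrays of slide 3, which held only treated mice, and 4 to 51 on the others. Log2 values minus the 75th percentile of the array were computed for 41174 probes, of which 24375 had a gene symbol through RefSeq accessions. After the filter on dim signals, 30192 probes of 23729 genes were tested with limma 3.58.1 in R 4.3.3, with 1 mean per group over all 12 arrays, an intensity trend in the prior variance and Benjamini-Hochberg adjustment at 0.05. The authors' deposited table holds log2 group means centred per probe for 2506 probes. The sources used here do not state its processing, and it was used only for comparison.

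All 9 genes are named, as are up to 4 called genes of largest change per list, all ligands, and the 5 genes closest in profile. The 9 genes, the gene lists and the tests were chosen with earlier results of these data known. The arrays carry no coordinates used here, and the normexp alternative used the median signal, since no mean signal column was in the files. Treated KO and treated WT mice of the same number had correlated deviations from the group means, at 0.31 to 0.51 in all 3 pairs. Mice 1 and 2 also correlated across numbers (0.15 and 0.12). Mice 3 lay on another slide than mice 1 and 2, so number and slide cannot be fully told apart. The labels give no litter, cage or day for these numbers. Each sample is the mucosa of 1 colon, so p-values measure the spread between mice, and 3 arrays per group limit the precision. Alternatives covered scaling, background, filter, probes, outlier spots, slide, scan day, replicate number, variance prior, array weights, samples in the fit and leaving out each mouse. The fit was tested on simulated data.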

Additional observations from a re-analysis of the deposited data

How the results depend on the processing

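Clec4e and Retnlg were called with KO marrow under all 14 alternatives other than leaving out 1 mouse, Clec4d under 13, Csf3r under 12 and Fpr2 under 8, against 13, 12, 11 and 12 of 13 for Clec4e, Retnlg, Clec4d and Csf3r with WT marrow. The number of the 9 genes called with KO marrow (5) was 3 with normexp and within scan day 1, 8 with scan day as a block and with array weights, and 9 with slide as a block and within slide 2. With WT marrow (4) it was 2 with slide as a block, 3 with normexp, 5 with array weights and 6 with scan day as a block. The shares of all genes called with WT marrow were, in that order, 0.535%, 3.62%, 50.3% and 10.5%. The 5 of 9 with array weights is thus near its share. With KO marrow the shares were 2.39% with normexp, 5.6% with scan day as a block, 21.5% with array weights and 7.27% with slide as a block. Quantile scaling gave 7 of the 9 genes with KO marrow and 6 with WT marrow, against 3.61% and 18.4% of all genes. Cxcr2 and Trem3 were called with both marrows under quantile scaling and with scan day as a block. Leaving out 1 mouse gave 3 to 6 with KO marrow, 3 to 4 with WT marrow and 0 to 0 in the other comparisons. The replicate block gave 4 and 4 called genes, with Fpr2 lost (adjusted p = 0.0786 in limma), and 0 between marrows. Same-numbered treated and untreated mice correlated at -0.32 to 0.21 with KO marrow and -0.38 to -0.01 with WT marrow. Between untreated groups the correlations were 0.43 (mice 1), -0.14 (mice 2) and 0.41 (mice 3). Whether the number pairs these mice was not tested. Array weights gave 5 called genes between untreated groups and 1 interaction (Fpr1 1.96, adjusted p = 0.0485 in limma), against 45.2% and 28.1% of all genes. Over all genes, calls with KO marrow (749) numbered 1726 with slide as a block, 1329 with scan day as a block, 5092 with array weights, 6222 within slide 2 and 269 within scan day 1. Calls with WT marrow (3278) numbered 860 with normexp, 127 with slide as a block, 1330 with only its own groups and 11935 with array weights. Array weights called 10718 genes between untreated groups and 6663 interactions, normexp 2 between untreated groups, and treated KO mouse 3 and treated WT mouse 3, 1 mouse of each marrow, differed in 4567 genes within slide 2 and 334 within scan day 1, which compares those 2 mice. Over all genes, leaving out 1 mouse moved the calls with KO marrow by over 1.5 times without untreated KO mouse 2 (302) or 3 (251), treated KO mouse 1 (386) or 2 (417) or treated WT mouse 3 (1268), those with WT marrow without untreated WT mouse 1 (487), 2 (523) or 3 (1923), treated WT mouse 1 (502), 2 (1279) or 3 (7600) or treated KO mouse 1 (2106), and gave 1667 calls between untreated groups without untreated KO mouse 1. The median difference of all genes with KO marrow (-0.11) was 0.23 with normexp, 0.44 with slide as a block and -0.06 with quantile scaling. Directions turned mostly between marrows. Quantile scaling gave Trem3 0.093 in treated mice and Clec4d 0.27 in untreated mice. Normexp gave Cxcr2 -0.26, Fpr1 -0.27 and Fpr2 -0.48 in treated mice, and interactions of -0.24 for Csf3r and -0.42 for Trem3. Slide as a block, like slide 1 alone, gave Clec4e 0.36, Clec4d 0.80 and Trem1 0.15 in untreated mice, and the block an interaction of -0.59 for Trem1. Array weights gave Fpr1 -0.53 and Trem1 -0.32 for treatment with WT marrow, Cxcr2 -0.12, Fpr1 -0.18 and Fpr2 -0.84 in treated mice, and interactions of 0.11 for Clec4e and 0.21 for Clec4d. Within slide 2, and so within scan day 1, treated mice gave Clec4d 0.43, Csf3r 0.54 and Trem3 0.91, and that day an interaction of 0.85 for Clec4d. Within slide 3, scan day 2 or without both treated mice 3, treated mice gave Retnlg -0.068, Fpr1 -0.40 and Fpr2 -0.58, and without those mice treatment with WT marrow gave Fpr1 -0.36 and Trem1 -0.49. Leaving out 1 mouse, treatment with WT marrow ran from -0.36 to 0.39 for Fpr1 and -0.49 to 0.64 for Trem1. In treated mice the marrow difference ran from -1.11 to 1.11 for Retnlg, -0.83 to 0.17 for Csf3r, -0.93 to 1.26 for Cxcr2, -0.85 to 0.69 for Fpr1, -0.65 to 0.85 for Fpr2, -1.03 to 0.17 for Trem1 and -0.80 to 0.62 for Trem3. In untreated mice it ran from -1.70 to 0.79 for Clec4d, and the interaction from -0.94 to 0.56 for Clec4e, -1.49 to 1.01 for Clec4d, -0.54 to 1.67 for Retnlg and -0.10 to 1.33 for Trem3. The cause of these changes was not tested. The single-probe test, the scan day alone and leaving out both treated mice 3 were chosen after seeing the data. Signals near background limit the untreated values of Retnlg, Csf3r, Cxcr2 and Trem3, and in part those of Clec4e (1 of 6 untreated arrays well above background), Clec4d (2 of 6) and Fpr2.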
